A study of Mus musculus with 2 samples.

Results

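The genes of the DNA replication machinery were followed in skeletal muscle of newborn mice. The 41 genes were chosen by name, with earlier results of these data known. Their symbols were matched to gene IDs through the GENCODE mouse annotation. All 41 were found in both gene tables, among 43346 gene rows. They cover origin licensing, the MCM helicase and its activation, the polymerases and primase, the sliding clamp and its loader, nick sealing, nucleotide supply, uracil removal, chromatin assembly and cyclin E. The series holds 1 group, untreated B6NCrl mice on postnatal day 0, with 2 replicates that the labels call pup 1 (replicate 1) and pup 2 (replicate 2) of 1 pregnancy. Both carry the same donor entry, and the spread between them may be technical if they are not 2 animals. Which muscle was taken is not given, and sex was not collected. Each library was made from 10 ng of total RNA longer than 200 nt, and the gene tables sum to 40454600 and 37150684 expected counts.

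The libraries matched their tissue label. All 12 skeletal muscle markers were above 1 TPM (the authors' length-corrected measure of transcript abundance) and summed to 145132 TPM in replicate 1 and 158542 TPM in replicate 2, led by skeletal actin Acta1 at 49664 and 57562 TPM. The 6 genes listed as markers of satellite cells, the stem cells of muscle, summed to 210 and 215 TPM. Myod1 led them at 57.2 and 56.0 TPM and Pax7 was lowest at 1.69 and 1.81 TPM. Their sum is not taken as a measure of stem cells alone. Replicate 1 also held RNA of neighbouring tissues: the 10 epidermis markers summed to 506 TPM against 8.11 in replicate 2 (highest Krt1, 164 and 0.26), the 10 cartilage markers to 58.5 against 5.98 (highest Col2a1, 24.1 and 0.27) and the 8 fat cell markers to 5086 against 892 (highest Fabp4, 2591 and 787). In whole tissue, fewer dividing cells and less replication RNA per cell cannot be told apart.

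Before a cell copies its DNA, the origin recognition complex, Cdc6 and Cdt1 load rings of Mcm2 to Mcm7 onto origins, and Cdc45 and the GINS complex then turn each ring into a working helicase. DNA polymerase alpha with primase starts each strand, the loader made of Rfc subunits places the Pcna clamp, polymerases delta and epsilon extend, and Fen1 and Lig1 join the pieces made on the lagging strand. Many of these genes are known targets of E2F transcription factors at entry into S phase, and muscle fibres leave the cell cycle as they form, while the mononuclear cells of growing muscle continue to divide.

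E2F sites were looked for in the promoters. Windows from 250 bases before to 50 bases after a RefSeq transcription start (GRCm38.p6) were found for 32 of the 41 genes. Mcm4, Gins1, Gins2, Gins4, Pole, Prim2, Rfc2, Gmnn and Ccne2 had no window and were not scanned. Exact matches on both strands to TTTCCCGC, TTTGGCGC, TTTCGCGC or TTTGCCGC were counted as E2F site forms, and some of these forms overlap each other on opposite strands. At least 1 match stood in 13 of the 32 genes (40.6%), against 2.6% of all 27025 gene symbols with a window and 4.73% of 9812 protein-coding genes of at least 1 TPM in this muscle. The 13 genes were Cdc6, Cdt1, Gins3, Lig1, Mcm3, Mcm5, Mcm6, Mcm7, Orc1, Pola1, Pold1, Rfc3 and Uhrf1, and 4 of them encode subunits of the MCM ring. A match is only a match of letters and does not show that a factor was bound.

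The stretches below are those of the 4 genes with the most matches, ties taken by level, written 5′ to 3′ on the strand of the gene with the matches in capitals. For Mcm6, the 180 bases before the start lie outside every annotated exon and are shown whole. For the other genes the matches lie in 5′ untranslated exon sequence as GENCODE M21 draws it, and only 30 bases around them are shown. The upstream Mcm7 stretch also lies in the first exon of Ap4m1 on the opposite strand, and the RefSeq start used for Mcm7 is not the outermost start of the gene. GENCODE M21 also begins Rfc3 upstream of the RefSeq start used, so that its match at -10 lies in an annotated exon.
Mcm6, chr1:128359706-128359885, minus strand: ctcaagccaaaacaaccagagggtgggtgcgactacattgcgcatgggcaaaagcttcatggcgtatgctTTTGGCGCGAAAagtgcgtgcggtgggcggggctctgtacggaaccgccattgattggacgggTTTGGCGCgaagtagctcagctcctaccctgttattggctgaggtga
Mcm7 upstream, chr5:138172030-138172059, minus strand: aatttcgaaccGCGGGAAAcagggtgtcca
Mcm7 downstream, chr5:138171849-138171878, minus strand: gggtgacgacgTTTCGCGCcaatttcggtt
Rfc3, chr5:151651195-151651224, minus strand: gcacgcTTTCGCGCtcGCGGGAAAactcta
Mcm3, chr1:20820265-20820294, minus strand: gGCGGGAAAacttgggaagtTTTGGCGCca

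In Mcm6 the first run of capitals holds 2 overlapping matches on opposite strands, at -110 and -106. The third match begins at -47, with 0 as the first base by the RefSeq start. GENCODE M21 begins Mcm6 downstream of that start, at base 128359664. The 13 genes held 19 matches, 12 of them beginning before the start and 7 at or after it. Of 51 further replication genes with a window, 15 (29.4%) held an E2F site form, 12 (23.5%) the cell cycle homology region TTTGAA and 27 (52.9%) the box bound by NF-Y, CCAAT. Of 25 mitosis genes with a window, 1 (4%) held an E2F site form and 19 (76%) held TTTGAA, whereas 4 of the 32 replication genes (12.5%) and 14.4% of the expressed protein-coding genes held it. CCAAT stood in 19 of the 32 replication genes (59.4%), in 20 of the 25 mitosis genes (80%) and in 42.8% of the expressed protein-coding genes. Whether these shares differ between the lists was not tested.

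**Figure D1:**
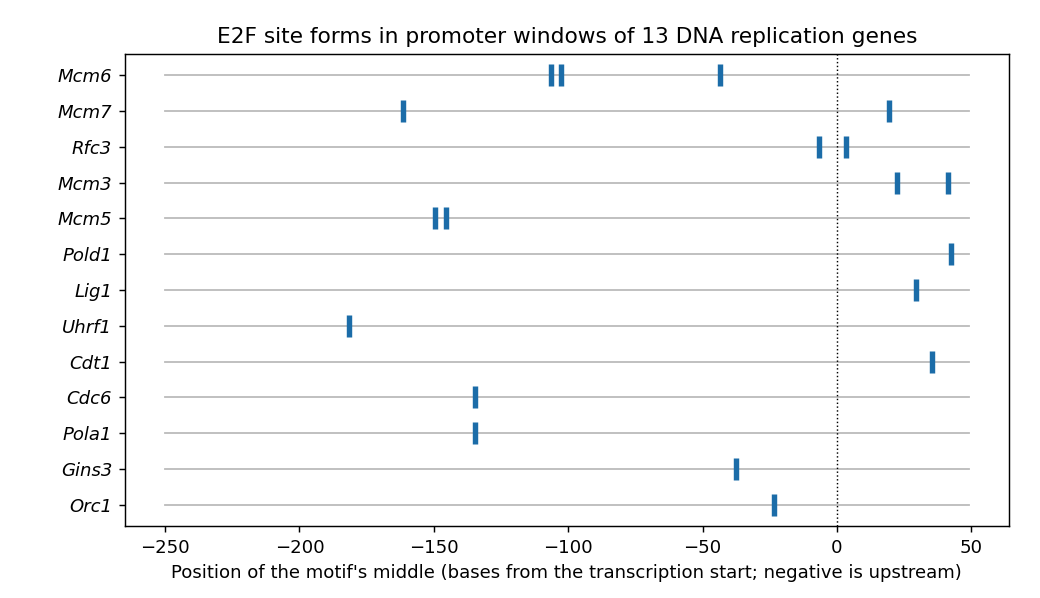
Position of the middle of each E2F site form in the promoter windows of the 13 DNA replication genes that hold one, in bases from the RefSeq transcription start (dotted line, negative is upstream). Each blue tick is 1 match and each grey line the window from 250 bases before to 50 bases after the start; 12 of the 19 matches begin before the start.

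All 41 genes were present at a mean of at least 1 TPM, 28 of them at 10 TPM or more and 7 under 5 TPM. Their median was 15.3 TPM in replicate 1 and 12.4 TPM in replicate 2, and the median gene stood at percentile 53.8 among 12495 protein-coding genes of at least 1 TPM. Together they made up 0.0709% and 0.0557% of all TPM. Levels differed by role more than between the pups. The clamp and its loader had a median of 27.0 ± 4.43 TPM (SD, n = 2) and the nucleotide genes 27.4 ± 6.06 TPM, whereas the polymerase and primase genes stood at 9.00 ± 1.19 TPM and the licensing genes at 6.54 ± 1.15 TPM. In both pups every nucleotide gene lay above every polymerase and primase gene.

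The licensing genes stood at unlike levels. Orc6, a small subunit of the origin recognition complex, was at 20.1 TPM in replicate 1 and 17.9 TPM in replicate 2, while Orc1, the subunit whose protein is known to vary through the cycle, was at 1.33 and 0.72 TPM, the lowest of the 41 genes on this measure. Cdc6, the ATPase that joins the complex at the origin, was at 3.85 and 2.10 TPM. Cdt1, which brings the MCM ring, was at 7.35 and 5.72 TPM, and its inhibitor geminin, Gmnn, at 15.3 and 11.5 TPM. The inhibitor thus stood above the loader in both pups, with a log2 ratio of Cdt1 to Gmnn of -1.02 ± 0.03 (SD, n = 2). Cdc6 to Cdt1 came to -1.16 ± 0.35 and Orc1 to Orc6 to -4.14 ± 0.45. These ratios use TPM with 0.1 added, and a pair is called beyond the spread where both pups have the same sign and the mean exceeds 3 SD; with 2 pups an exact sign-flip permutation test cannot give a p below 0.5. All 3 licensing pairs met this rule. The Orc1 value rests on 81.6 and 48.5 expected counts, some of them shared with other features. By the authors' posterior mean, Orc1 was at 2.40 and 1.66 TPM, above Gins3 (2.09 TPM) in replicate 1, and the log2 ratio of Orc1 to Orc6 was -3.16.

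The MCM ring is built from 1 copy of each of its 6 subunits, and its RNAs lay within a narrower range. Mcm7 was at 30.9 TPM in replicate 1 and 25.8 TPM in replicate 2, and Mcm6 at 32.1 and 24.0 TPM. Mcm3 (17.8 and 14.5 TPM), Mcm2 (17.6 and 13.3 TPM) and Mcm4 (15.5 and 12.4 TPM) stood below them, and Mcm5 was lowest at 12.9 and 8.65 TPM. The highest subunit exceeded the lowest 2.48 times in replicate 1 and 2.99 times in replicate 2. Mcm6 and Mcm7 changed places between the pups at the level of whole genes, so that their order cannot be given. With protein-coding models only, Mcm3 came to 12.6 and 8.68 TPM, below Mcm5 in replicate 1 and above Mcm5 in replicate 2. Mcm7 is also the host gene of the microRNAs Mir25, Mir93 and Mir106b.

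The factors that activate the helicase were less even. The 4 GINS subunits, which also form a complex with 1 copy of each, ran from Gins3 at 2.11 and 2.08 TPM and Gins1 at 6.49 and 5.36 TPM to Gins2 at 18.7 and 13.2 TPM and Gins4 at 27.8 and 24.6 TPM. The highest exceeded the lowest 13.2 and 11.8 times, against 2.48 and 2.99 times in the MCM ring. With protein-coding models only, Gins2 was at 5.14 and 3.36 TPM, below Gins1 at 6.10 and 4.72 TPM. Cdc45, which binds the ring together with GINS, was at 7.58 and 6.09 TPM. Mcm10, which is needed to start unwinding and is not part of the ring, was at 2.42 and 1.89 TPM and stood below Cdc45 by a log2 ratio of -1.62 ± 0.02, which came to -2.24 with protein-coding transcript models only.

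Subunits of the same polymerase also stood at unlike levels. Pola1, the catalytic subunit of polymerase alpha, was at 2.80 TPM in replicate 1 and 2.65 TPM in replicate 2, while its partner Pola2 was at 14.3 and 12.7 TPM, a log2 ratio of -2.27 ± 0.06. Of the primase subunits, the catalytic Prim1 was at 13.5 and 11.6 TPM and the large subunit Prim2 at 6.22 and 4.71 TPM, a log2 ratio of 1.19 ± 0.13. Pold1, the catalytic subunit of the lagging strand polymerase delta, was at 17.4 and 14.5 TPM. Pole, its counterpart in the leading strand polymerase epsilon, was at 2.98 and 2.74 TPM, and the log2 ratio of Pold1 to Pole was 2.43 ± 0.10. All 3 ratios were beyond the spread between the pups.

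Pcna, the ring that tethers the polymerases to DNA, was the highest of the 41 genes in both pups, at 57.1 and 43.4 TPM. Among the subunits of its loader, Rfc1, the large subunit, was at 36.1 and 30.8 TPM and Rfc2 at 36.8 and 26.2 TPM, above Rfc4 (23.8 and 21.2 TPM), Rfc3 (19.7 and 16.3 TPM) and Rfc5 (13.6 and 11.1 TPM). For whole genes, the 5 loader subunits thus spanned 2.72 times in replicate 1 and 2.77 times in replicate 2. Most of the Rfc1 TPM came from short models, of 485 and 685 nt, that held a much smaller share of its counts. The place of Rfc1 among the loader subunits, their span in both replicates and the size of the ratio of Pcna to Rfc1 depend on them. Pcna exceeded Rfc1 by a log2 ratio of 0.58 ± 0.12, beyond the spread, and by 3.89 with protein-coding models only, where the value of Rfc1 is a lower limit. Fen1, which trims the flaps of lagging strand pieces, was at 14.1 and 11.6 TPM, and the ligase Lig1 at 18.5 and 13.1 TPM. Their log2 ratio of -0.28 ± 0.15 did not exceed 3 SD. Lig1 stood above Lig3, the ligase of repair and of mitochondria (8.80 and 7.16 TPM), by 0.96 ± 0.14.

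The genes that make deoxynucleotides stood close together when all transcript models of a gene were summed. Thymidine kinase Tk1 was at 34.8 TPM in replicate 1 and 26.1 TPM in replicate 2, and thymidylate synthase Tyms at 32.7 and 25.5 TPM. The subunits of ribonucleotide reductase were at 30.7 and 20.8 TPM for Rrm2 and at 21.2 and 17.3 TPM for Rrm1. The highest of the 4 exceeded the lowest 1.64 and 1.51 times, but 14.1 and 14.3 times with protein-coding models only, where Tyms was lowest. For whole genes, neither Rrm1 to Rrm2 (-0.40 ± 0.18) nor Tyms to Tk1 (-0.06 ± 0.04) was beyond the spread. Both S phase forms stood above the forms that quiescent cells also use. Rrm2 exceeded Rrm2b (6.02 and 5.37 TPM) by a log2 ratio of 2.13 ± 0.28. Tk1 exceeded the mitochondrial Tk2 (8.28 and 5.82 TPM) by 2.10 ± 0.06, and by 1.26 with protein-coding models only.

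Another set of genes acts on new DNA behind the fork. Ung, which removes uracil from DNA, was at 9.32 and 7.83 TPM. Uhrf1, which carries DNA methylation onto the new strand, was at 13.7 and 10.5 TPM. The chromatin assembly factor subunits, which deposit histones on new DNA, were at 8.89 and 6.17 TPM for Chaf1b and at 4.49 and 3.30 TPM for Chaf1a, a log2 ratio of Chaf1a to Chaf1b of -0.93 ± 0.06. Of the E cyclins that start S phase with Cdk2, Ccne1 was at 22.6 and 17.2 TPM and Ccne2 at 13.5 and 9.71 TPM, with a ratio of 0.78 ± 0.05. In all, 13 of the 16 pairs that were compared, chosen with earlier results of these data known, were beyond the spread between the pups.

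**Figure D2:**
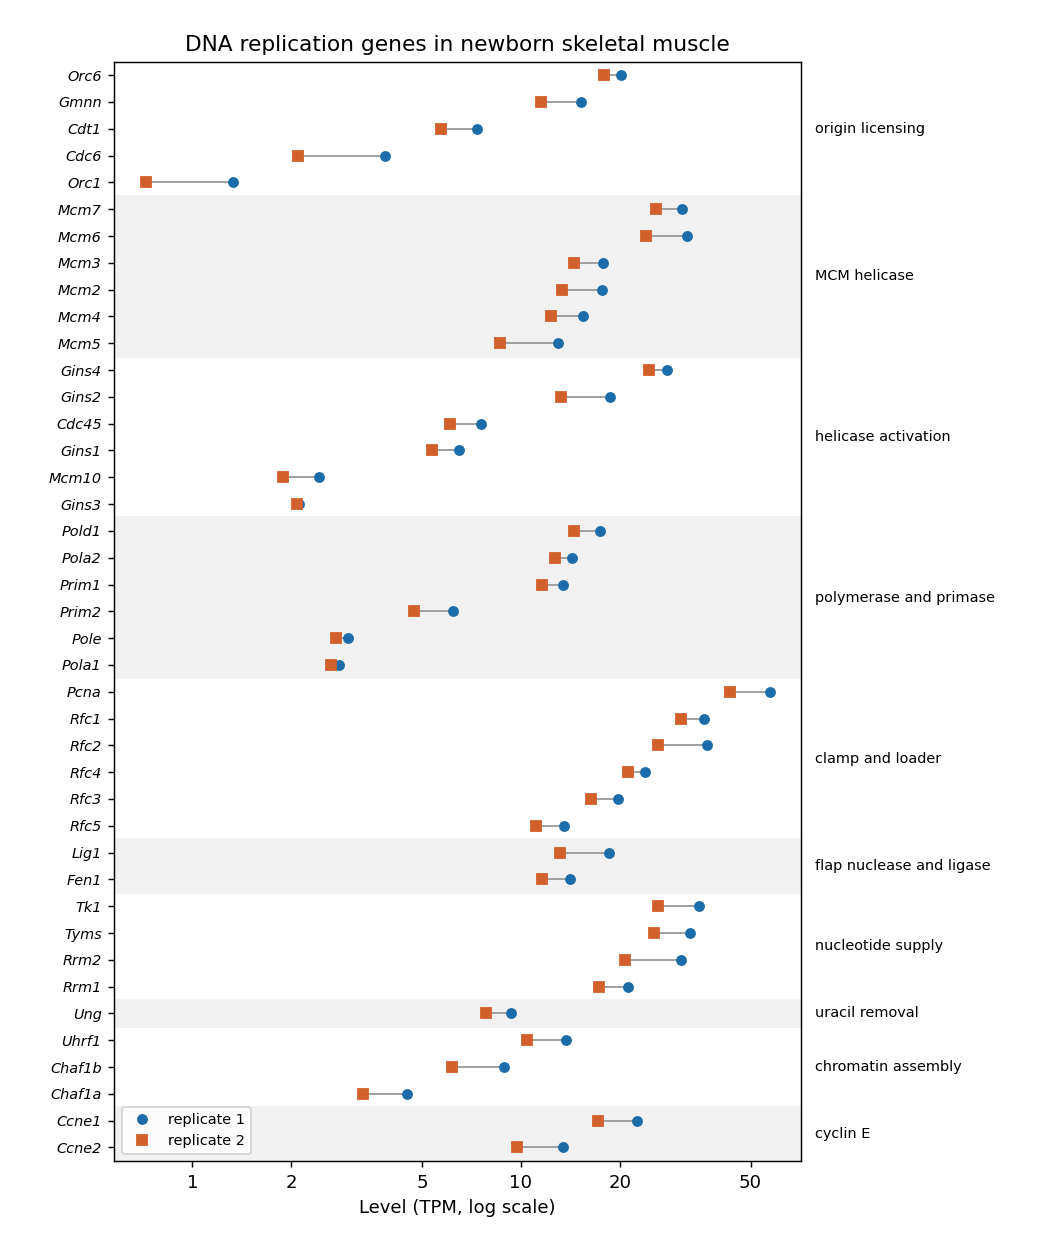
Level of each of the 41 DNA replication genes in TPM (log axis), by role, with replicate 1 as blue circles and replicate 2 as orange squares joined by a line. Pcna is highest and Orc1 lowest in both pups, and every circle lies to the right of its square.

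The order of the genes was much the same in both pups. Of 820 pairs of genes, 794 (96.8%) had the same order, and the levels of the 41 genes had a Spearman's rho of 0.992 across genes, which are not independent replicates. Neighbours in the order were seldom told apart. Of 40 neighbouring pairs by mean level, 17 changed places between the pups, and for 2 the authors' intervals of TPM did not overlap in either pup, Pcna above Rfc1 and Prim2 above Chaf1a. Those intervals cover uncertainty within a library, and their level is not stated.

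For some genes the level depended on which transcript models were counted. Of the 41 genes, 9 had 1 model and 32 had several, and the leading model by TPM was the same in both pups for 38. Models annotated as protein-coding took up 90% or more of TPM in each pup for 22 genes, among them Mcm2, Mcm4, Mcm5, Mcm6, Pcna, Rrm1 and Rrm2. For 3 genes they held less than 50% in both. Tyms held 6.57% and 5.54%: its leading models were Tyms-205, of 797 nt and annotated to undergo nonsense-mediated decay (44.5% and 41.6% of TPM), and Tyms-202, of 816 nt with a retained intron (34.6% and 34.4%), above the coding Tyms-201 of 3163 nt. Gins2 held 27.5% and 25.4%, with 67.6% and 67.1% in Gins2-204, a retained intron model of 511 nt. By expected counts, which are not divided by length, the coding share of Gins2 was 77.9% and 64.0% and that of Tyms 18.0% and 14.6%.

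Rfc1 held 9.92% and 8.39% of its TPM in models annotated as coding, but 6 of its 7 models have no entry in the annotation used, so that this share is a lower limit. Among those 6, the model of 485 nt held 41.7% and 44.7% of TPM but 8.9% and 9.8% of expected counts. The model of 685 nt held 23.6% and 21.7% of TPM but 7.6% and 7.3% of counts. The longest, of 4751 nt, led by counts at 42.6% and 43.2%. Tk1 came to 57.9% and 53.8%, with 32.5% and 35.4% in the retained intron model Tk1-203. With coding models alone, the median over the 41 genes was 10.8 TPM, the clamp and loader stood at 16.1 TPM, the nucleotide genes at 18.2 TPM, the MCM ring at 14.7 TPM, the polymerase and primase genes at 6.93 TPM and the licensing genes at 6.54 TPM. By these means, the order of these 5 roles was the same as with all models. In replicate 2 alone, the clamp and loader (23.7 TPM) stood above the nucleotide genes (23.1 TPM) with all models. With coding models they stood below them there (14.8 and 15.6 TPM). Tyms then became the lowest nucleotide gene at 1.78 TPM, so that the statement that every nucleotide gene lay above every polymerase gene holds for whole genes only. A few genes differed in form between the pups. The share of Lig1-201, a coding model, was 27.7% of TPM in replicate 1 and 10.2% in replicate 2, and Cdc45-201 went from 49.1% to 35.5% as Cdc45-202, also coding, went from 46.6% to 60.1%.

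**Figure D3:**
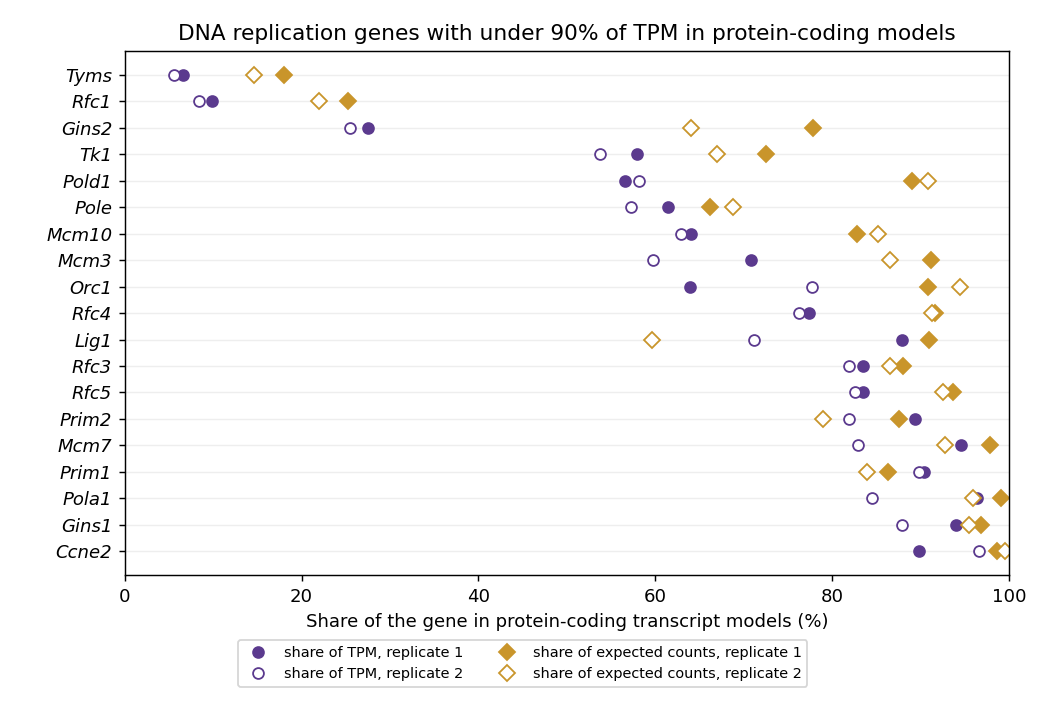
Share of each gene held by transcript models annotated as protein-coding, in percent of its TPM (purple circles) and of its expected counts (gold diamonds), with replicate 1 filled and replicate 2 open, for the genes under 90% of TPM in at least 1 pup. Tyms and Rfc1 have the lowest shares on both scales, and for Gins2 the share of counts is far above the share of TPM.

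Reads could also be shared with neighbouring or similar genes. Expected counts were fractional, so that some reads were split, for 10 genes (Mcm7, Pcna, Orc1, Gins2, Rfc4, Rfc5, Fen1, Uhrf1, Chaf1a and Ccne2). By annotation, 12 of the 41 genes overlap a protein-coding gene on the opposite strand, for example Rfc4 and Eif4a2, Fen1 and Tmem258, and Orc6 and Vps35. Whether counting used strand is not given in the sources used here, and the levels of these 12 genes are uncertain to that extent.

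All 41 genes had a lower TPM in replicate 2, with a median coefficient of variation of 17.4%. TPM also moves with the rest of the library, so the pups were compared again on counts scaled by TMM, over genes with at least 100 mean counts. Of the 40 replication genes that passed this limit (all but Orc1), 38 were lower in replicate 2 by any amount, against 52.1% of all 12432 genes. Beyond the 95% counting interval, 27 (67.5%) were lower and 0 higher, against 28.4% and 25.2% of all genes. None was past 2-fold in either direction, where 2.28% of all genes were lower and 0.145% higher. The median log2 ratio of replicate 2 to replicate 1 was -0.23 over the 40 genes and -0.01 over all genes. With 1 library per pup no test was possible, and the intervals cover counting error only.

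The ratio was most negative for Cdc6, at -0.66 (95% counting interval -0.95 to -0.40), followed by Lig1 at -0.46, Mcm5 at -0.45 and Rrm2 at -0.42. All 6 MCM genes (-0.45 to -0.19), all 4 nucleotide genes (-0.42 to -0.17) and all 3 chromatin genes (-0.32 to -0.27) had intervals below 0. Polymerase and primase genes lay nearer to 0, with a median of -0.07, and Pole at 0.11 (-0.14 to 0.37) and Gins3 at 0.11 (-0.24 to 0.46) were the 2 genes with a positive ratio. Orc6 (-0.02), Pola2 (-0.03), Rfc4 (-0.04), Gins4 (-0.04) and Prim1 (-0.05) had intervals that included 0. So did Pola1, Pold1, Rfc3, Ung, Gins1 (-0.22) and Mcm10, at -0.29 (-0.61 to 0.02). Whether the roles differ in this respect was not tested.

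**Figure D4:**
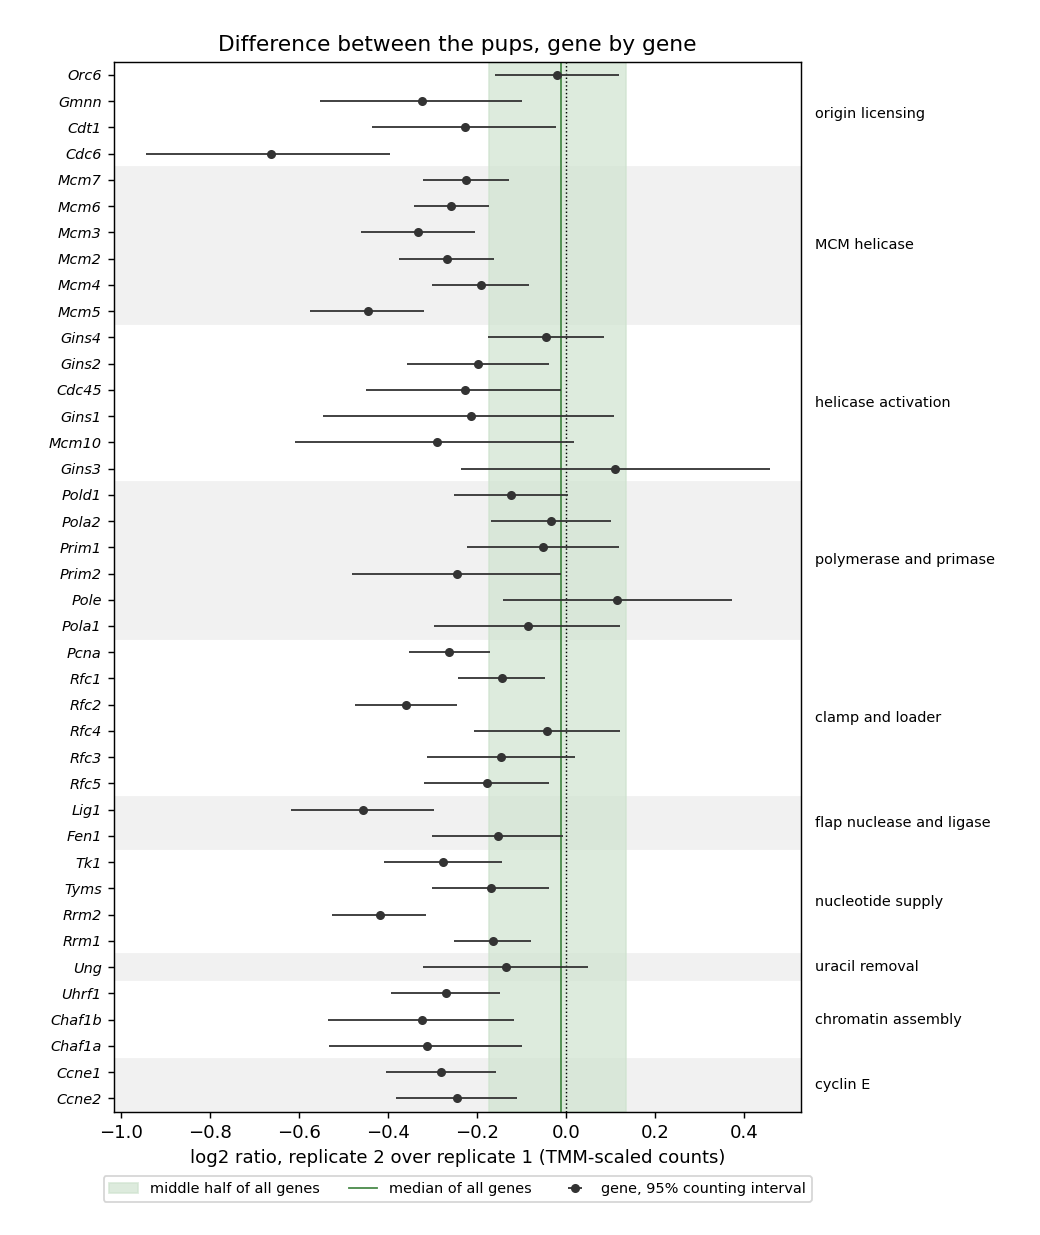
Log2 ratio of replicate 2 to replicate 1 on TMM-scaled counts for the 40 replication genes with at least 100 mean counts, by role; points are genes and bars 95% counting intervals. The green line is the median of all 12432 genes (-0.01) and the green band runs between their quartiles (-0.17 and 0.13); 38 of the 40 points lie below 0.

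The same comparison was made for gene lists beside the 40 genes. A further list of 59 replication genes past the count limit had a median of -0.12, with 47 lower and 12 higher in replicate 2 and none past 2-fold; beyond the counting interval 25 were lower and 3 higher. Among all 60 genes of that list found in the files, the highest were Rpa3, a subunit of the single-strand binding protein, at 59.9 and 51.2 TPM, and Slbp, which binds histone mRNA, at 61.8 and 48.3 TPM. The lowest were the origin firing factors Recql4, which did not pass the count limit, at 0.58 and 0.42 TPM and Ticrr at 0.67 and 0.41 TPM. The 29 mitosis genes had a median of -0.06, with 5 lower and 4 higher beyond the interval, and were led by the kinase Cdk1 at 85.6 and 69.8 TPM. The 15 genes of cell cycle exit had a median of -0.02 but went both ways, with 6 lower and 6 higher beyond the interval. The inhibitor Cdkn1c led them at 1307 and 945 TPM, and 1 was past 2-fold, the inhibitor Cdkn2c at 27.4 and 8.33 TPM (-1.33). Replication genes were thus lower in replicate 2 while the mitosis genes lay near the median of all genes, but whether these lists differ was not tested.

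Markers of other cells moved between the pups as well. All 12 skeletal muscle markers were higher in replicate 2 with TMM (median log2 ratio 0.24), but 6 of 12 when counts were scaled on the spike-ins, which moved the median of all genes from -0.01 to -0.26. The replication genes were at -0.48 on that scale. A change of scaling shifts all genes by nearly the same amount, so their place below the median of all genes could not change. With TMM again, 7 of 8 fibroblast markers were lower in replicate 2 (median -0.28, summed 7177 and 5152 TPM, highest Col3a1 at 2496 and 1897 TPM), and of the 9 leukocyte markers past the count limit 8 were lower (median -0.42, all 10 summed 1523 and 901 TPM, highest Cma1 at 567 and 315 TPM). Endothelial markers had a median of 0.02 (summed 293 and 264 TPM, highest Egfl7 at 92.9 and 91.1 TPM) and red cell markers -0.14 (summed 6158 and 5063 TPM, highest Hba-a2 at 2782 and 2275 TPM). The 6 satellite cell markers had a median of 0.14 with TMM, with 4 higher and 2 lower in replicate 2. Scaled on the spike-ins, their median was -0.11, with 2 higher and 4 lower. The epidermis, cartilage and fat markers given above were lower in replicate 2 in every case that passed the count limit, and 1 cartilage marker, Snorc, was listed at 0 there. The part of these cells in the lower replication genes of replicate 2 was not tested.

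**Figure D5:**
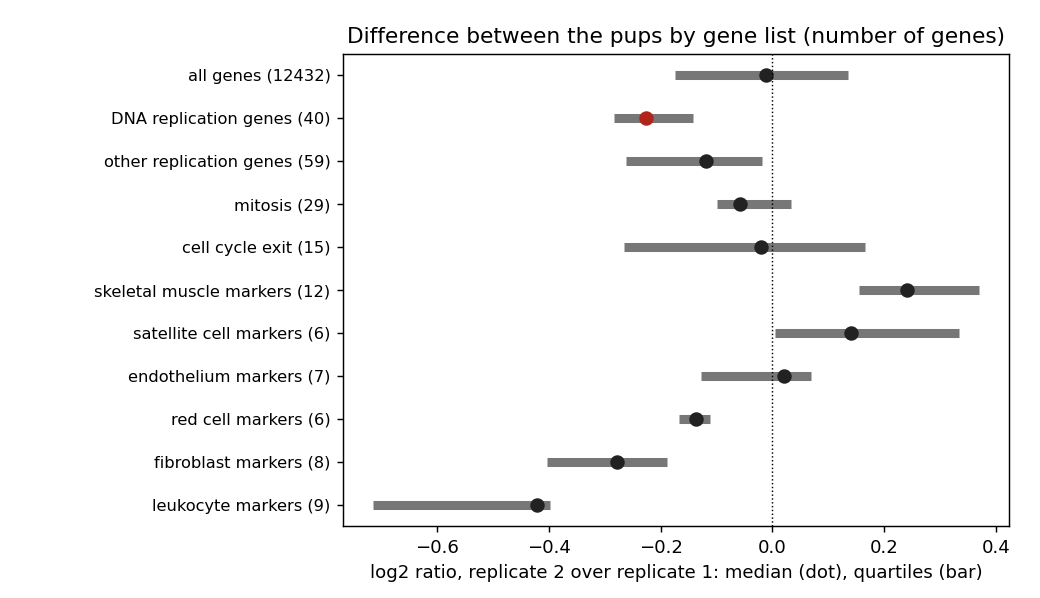
Median (dot) and quartiles (bar) of the log2 ratio of replicate 2 to replicate 1 on TMM-scaled counts for each gene list, with the number of genes past the count limit in brackets; the red dot is the DNA replication genes. They sit at -0.23, between the red cell (-0.14) and fibroblast (-0.28) markers, while the muscle markers sit at 0.24; epidermis, cartilage and fat markers lie far to the left and are not drawn.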

How the data were processed

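Total RNA from 2 newborn pups was sequenced. Per the labels' protocols, RNA came from a mirVana kit, a SMARTer ultra low input manual is listed, and spike-ins were added. Per the file headers and accompanying notes, quantification used mm10 and GENCODE M4 on transcriptome alignments; the aligner and the program that quantified were not given in the sources used here. The authors deposited expected counts (estimated reads), TPM (also as a posterior mean), the transcript share in percent, and bounds of an interval of TPM, treated as a score.

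GENCODE M21, of the same build, supplied gene names, transcript classes and positions (42462 of 43346 IDs matched). Expected counts were rounded and scaled by TMM (edgeR 4.0.16, R 4.3.3), and log2 CPM with a prior count of 2 gave ratios. Counting intervals are Clopper-Pearson at 95%; PCR reads are not independent molecules. DESeq2 1.42.0 gave alternative size factors. Other steps ran in Python 3.11.15 with scipy 1.17.1, pandas 2.3.3 and numpy 2.4.6, and figures in matplotlib 3.10.9. The ratio code was checked on simulated counts without variation between animals, with changes larger than those of the replication genes.

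The genes, lists and pairs were chosen with earlier results of these data known. Every replication gene is named, with the genes of the pairs, the 2 highest and 2 lowest further replication genes, and the highest of each other list; other genes were named after their values or positions were seen. Promoters are from RefSeq (GRCm38.p6). Protein sequences were not used here. Alternatives covered scaling, filters, pseudocounts, posterior means, coding models and leaving out each replicate.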

Additional observations from a re-analysis of the deposited data

How the results depend on the processing

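The median level of 13.5 TPM came to 10.8 TPM with protein-coding models only, 13.6 TPM with posterior means, and 12.4 to 15.3 TPM with either replicate left out. The median percentile of 53.8 came to 73.1 without a filter on low values and to 52.5 to 55.9 without a replicate. The median log2 ratio between the pups of -0.23 came to -0.48 scaled on spike-in counts (406 and 416 counts) and -0.47 scaled on the skeletal muscle markers. It was -0.32 on total counts. The median of all genes moved from -0.01 to -0.26, -0.25 and -0.10 under these scalings, in that order. Scaling on total counts, spike-ins and muscle markers was added after seeing the data. At 1.5-fold in place of 2-fold, 1 gene passed, Cdc6. The number of genes lower in replicate 2 was 38 to 40 in the scalings tried. At least 1 TPM was reached by 40 genes with coding models only or without replicate 1 (all but Orc1), and 34 reached 5 TPM. None of the 13 pairs beyond the spread changed sign. Of all 16, 9 moved by more than the spread with coding models, 6 with posterior means and 7 with a pseudocount of 1 TPM. With coding models the log2 ratio of Pcna to Rfc1 came to 3.89, that of Tk1 to Tk2 to 1.26, that of Tyms to Tk1 to -3.20 and that of Fen1 to Lig1 to 0.05. No paired analysis was possible because the series has 1 group. By mean counts, depth limits Orc1, Gins3 and Gins1 most.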
